A study of Homo sapiens with 6 samples.

Results

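The comparison described here set 1 SFRP4-expressing stable clone against 1 mock clone of the same cells, with 1 array for each, so it used 2 of the 6 arrays of the study. The cells carry the name HM20 and the cell line label A549, a line established from a human lung adenocarcinoma. The sources used here do not say how HM20 differs from other A549 cells. The SFRP4 clone and the mock clone were both in medium with Wnt3a, a secreted Wnt ligand, for 24 hours before RNA was taken, as were the clones labelled SFRP1, SFRP2, SFRP3 and SFRP5. The other 4 clones enter below only as points of reference. No array without Wnt3a was analysed here.

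With 1 clone and 1 array on each side there is no replicate error, no p-value and no SD, and a difference between the arrays may belong to the SFRP4 construct, to the clone or to the hybridisation, which cannot be told apart in this design. RNA was measured in one colour, and the deposited values are linear intensities. Throughout, a difference is SFRP4 minus mock on the log2(intensity + 1) scale, and a gene is counted as higher or lower when it was at least 2-fold away (1 log2 unit). Of the 18365 genes with a probe of 1 symbol, 11954 were kept because their brightest array reached the median of the whole table, 641.8. The dimmest kept gene was ZNF555, whose brightest array read 641.8, and the brightest gene left out was C11orf40, whose brightest array read 641.2.

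SFRP4 belongs to the secreted frizzled-related proteins, which share a cysteine-rich domain with the Frizzled receptors, can bind Wnts outside the cell and are known as modulators of Wnt signalling. Wnt ligands bind Frizzled receptors together with the co-receptors LRP5 and LRP6, and heparan sulphate proteoglycans at the cell surface hold Wnts and help to present them. In the canonical branch this leads to stabilised beta-catenin, which acts with TCF and LEF factors on target genes. The series title concerns SFRPs and stem cell properties driven by Wnt in cancer, which is the question behind the gene groups described first.

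The SFRP4 probe did not read higher in the SFRP4 clone. It gave 53.3 in SFRP4, against 67.7 in mock, and the 10th percentile of the probes was 67.0 on the SFRP4 array and 69.5 on the mock array, so both values lay under that percentile and have no order. Where in the gene this probe lies was not used here, so its reading does not check the label, and the clone is called SFRP4 after its label. SFRP1 was the bright family member, with 37206 in SFRP4, against 58836 in mock (difference -0.66) and 63703 to 110461 in the other 4 clones, and the FRZB probe, for SFRP3, gave 734 in SFRP4, against 476 in mock. SFRP2 and SFRP5 read at most 72.4 on both arrays.

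The bright epithelial markers read lower in the SFRP4 clone than in mock. Of the 5 epithelial markers with a probe, 4 were kept and 2 of them were at least 2-fold lower. The summed intensity of all 5 was 1905 in SFRP4, against 6046 in mock. KRT19 gave 223 in SFRP4, against 2634 in mock, KRT7 gave 119 in SFRP4, against 874 in mock, and CDH1, which encodes E-cadherin, differed by -0.92. EPCAM was too dim to be kept, with 419 in SFRP4, against 340.2 in mock. The surfactant genes SFTPA1, SFTPB, SFTPC and SFTPD, which mark alveolar type II cells, read between 62.9 and 342 on the SFRP4 array and between 59.2 and 222 on the mock array. Of 5 blood cell markers 2 were kept, and the summed intensity of all 5 was 3657 in SFRP4, against 6265 in mock. CD68, which is also found in lysosomes of other cells, gave 1271 in SFRP4, against 4249.7 in mock, with SFRP4 the lowest of the 6 arrays, while the leukocyte marker PTPRC was dim, with 64.2 in SFRP4, against 50.7 in mock. Of 8 fibroblast markers 3 were kept, and 2 of them were higher and 0 lower. The summed intensity of all 8 was 6507 in SFRP4, against 3463 in mock. PDGFRA gave 1495 in SFRP4, against 567 in mock, LUM gave 721 in SFRP4, against 288 in mock, and COL1A1 differed by 0.82. LUM reached the filter on the SFRP4 array alone, and over all 8 fibroblast markers on the array the median was 0.45. The part of these cell types in the gene groups below was not tested. Of 4 kept endothelial markers, 3 were at least 2-fold lower in SFRP4, and in each the mock array stood alone: PECAM1 gave 663 in SFRP4, against 4134 in mock, and 527 to 718 in the other 4 clones.

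In total 714 of the 11954 kept genes were higher in SFRP4 (5.97%) and 898 were lower (7.51%), together 13.5%, and the median difference of all kept genes was 0.06. With every array centred on its median the counts were 536 higher and 1115 lower, so that the share of higher genes among those 2-fold away was 32.5% in place of 44.3%. The count 4-fold away was 117 higher and 178 lower. Just inside and outside 2-fold lay OR4D2 at 1.00 and GPR98 at 0.998 among the higher genes, and PPP1R3E and SEMA4B on the lower side, SEMA4B at -0.9999. When the kept genes were divided by brightness into 5 equal bins, the dimmest bin held 272 higher and 263 lower genes and the brightest held 93 and 109. The filter itself admitted 192 genes that reached it on the SFRP4 array alone, 92 of them 2-fold higher, and 35 that reached it on the mock array alone, 28 of them 2-fold lower. All shares of gene groups below stand beside these backgrounds of 5.97% and 7.51%.

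**Figure D1:**
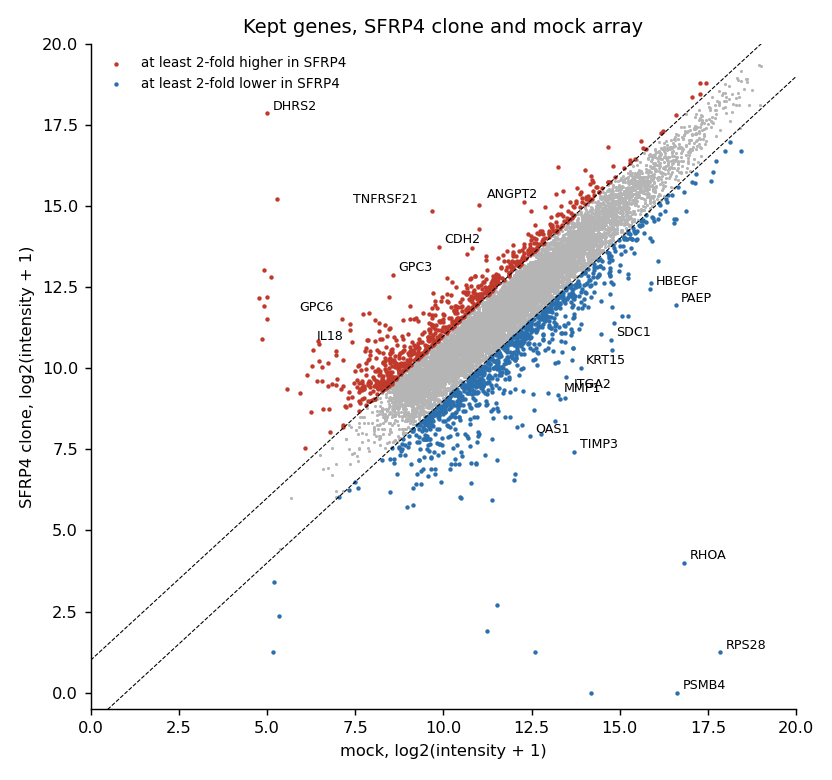
Each point is 1 of the 11954 kept genes, with log2(intensity + 1) on the mock array along the horizontal axis and on the SFRP4 array along the vertical axis. Dashed lines mark 2-fold, with 714 genes above them and 898 below, and the points near the bottom and left edges are probes close to 0 on 1 of the arrays.

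A second probe is a repeat measurement of the same RNA and not a replicate. Among the higher genes 143 had another bright probe, which was at least 2-fold higher for 63 and had the same sign for 124. For the lower genes these numbers were 221, 90 and 183. The genes with the largest difference on both probes were ANGPT2 on the higher side, at 4.02 and 3.69, and ITGA2 on the lower side, at -3.77 and -4.35. DIAPH2, a formin gene, shows the opposite case: the probe used differed by -4.36 and the others by 0.30 and -0.29.

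**Figure D2:**
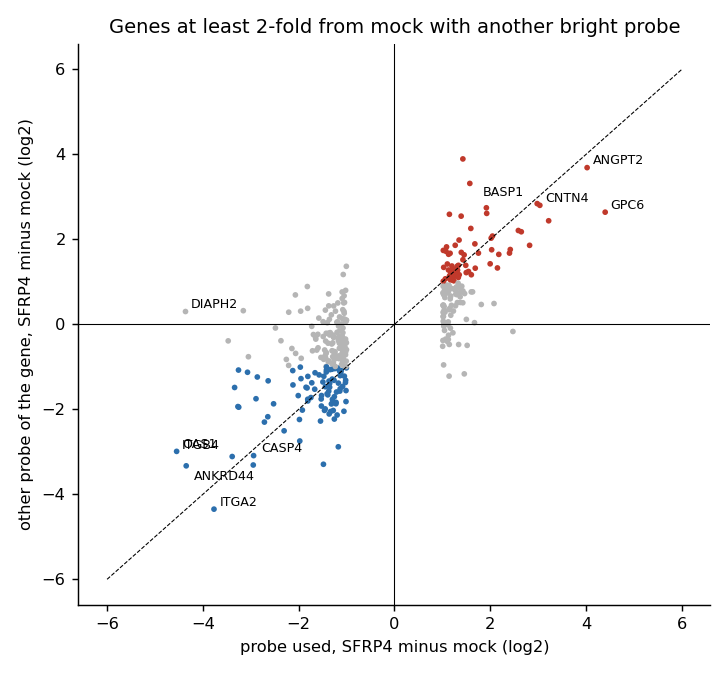
Each point is a gene at least 2-fold from mock that has another bright probe, with the difference of the probe used along the horizontal axis and that of the other probe along the vertical axis, both SFRP4 minus mock in log2 units. Coloured points, 63 higher and 90 lower, were at least 2-fold away on both probes, and the dashed line marks equal differences.

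Genes of the Wnt receptor list and secreted antagonists of the pathway were more often higher than lower in the SFRP4 clone, while Wnt ligands were mostly dim. Of 18 kept genes in the Frizzled and co-receptor list 5 were higher and 0 lower (27.8% against the background of 5.97%), with a median of 0.52. This list also holds the ubiquitin ligase genes RNF43 and ZNRF3, and RNF43 was 1 of the 5 higher genes. Of the 8 kept Frizzled genes 2 were higher and 0 lower. Of 6 kept secreted antagonists other than SFRPs 4 were higher and 0 lower, with a median of 1.12. The medians kept their sign under quantile normalization, median centring and level-dependent centring, except that the antagonist median was -0.10 over all 12 members on the array. WIF1 and NOTUM reached the filter on the SFRP4 array alone, where they were high, so their calls follow in part from the filter. The same holds for 1 of the 5 calls in the receptor list.

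Among the receptors FZD1 gave 2793 in SFRP4, 2230.1 in SFRP1, 1008 in SFRP2, 2329 in SFRP3, 1285 in SFRP5 and 938 in mock, a difference of 1.57. FZD7 gave 14464 in SFRP4, 8764 in SFRP1, 5615 in SFRP2, 9691 in SFRP3, 5993 in SFRP5 and 5649 in mock, a difference of 1.36. The SFRP4 array was the highest of the 6 for both genes, followed by SFRP3 and SFRP1. LRP5, a co-receptor, differed by 1.02 (706 in SFRP4, against 348 in mock) and LRP6 by 0.84, with 0.03 on its other probe. PTK7, a pseudokinase receptor linked to planar polarity, gave 1391 in SFRP4, against 609.9 in mock and 167 to 574 in the other 4 clones. RNF43 encodes a ubiquitin ligase that removes Frizzleds from the surface, and it differed by 1.36, while ZNRF3, its relative, differed by -0.24. FZD5 and FZD6 differed by -0.57 and -0.35.

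The secreted antagonists that were higher act at different steps. DKK1 binds LRP5 and LRP6 and is itself a Wnt target, and it gave 426 in SFRP4, 679 in SFRP1, 301 in SFRP2, 146 in SFRP3, 2009.5 in SFRP5 and 94.9 in mock, so the mock array was the lowest of the 6 but SFRP1 and SFRP5 lay above SFRP4. WIF1, which binds Wnts, gave 749 in SFRP4, 242 in SFRP1, 151 in SFRP2, 374 in SFRP3, 136 in SFRP5 and 177 in mock, with SFRP4 the highest. NOTUM, an esterase that removes the lipid from Wnts, gave 961 in SFRP4, against 430.4 in mock and 221 to 341 in the other 4 clones. APCDD1L gave 2006 in SFRP4, against 944 in mock, but 3409 to 13374 in the other 4 clones. DKK3, a divergent family member, differed by -0.02. Among the ligands WNT7A was lower, with 289.7 in SFRP4, against 686 in mock, and WNT10A, WNT10B, WNT16, WNT5B and WNT11 were within 2-fold. WNT7A reached the filter on the mock array alone, where it was high, so its call follows in part from the filter.

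**Figure D3:**
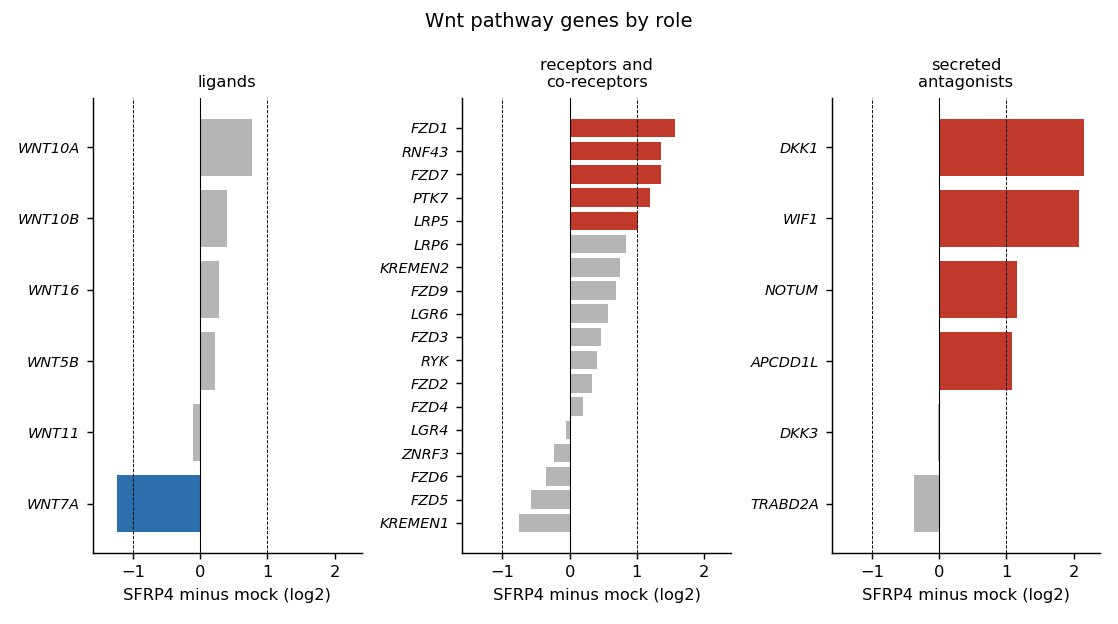
Bars give the difference of each kept Wnt ligand, Frizzled or co-receptor gene and secreted antagonist, SFRP4 minus mock in log2 units, with dashed lines at 2-fold. RNF43 and ZNRF3 are drawn with the receptors. Of these 30 genes, 9 were at least 2-fold higher (red) and WNT7A alone was at least 2-fold lower (blue).

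Inside the cell the pathway's genes differed little. Of 29 kept transducers 2 were higher and 0 lower. CTNNB1, the beta-catenin gene, gave 62464 in SFRP4, against 62423 in mock. TLE4, a co-repressor, gave 998 in SFRP4, against 280.1 in mock with 91.0 to 877 in the other 4 clones, and DVL2, a Dishevelled gene, gave 26612 in SFRP4, against 12937 in mock. DVL3, of the same family, differed by -0.98, and LEF1 by -0.77 with -1.33 on its other probe.

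Genes listed as Wnt/beta-catenin targets went both ways, 8 higher and 6 lower of 34 kept, with a median of -0.09. AXIN2, a widely used target, was dim on both arrays (253 in SFRP4, against 226 in mock) and was not kept, and NKD1 gave 4255 in SFRP4, against 3589.9 in mock. MYC gave 11354 in SFRP4, 33519.8 in SFRP1, 31658 in SFRP2, 25228 in SFRP3, 20142 in SFRP5 and 27366 in mock, with the SFRP4 array the lowest, and CCND1, which encodes cyclin D1, differed by -0.82. ABCB1, a drug efflux pump gene, gave 989 in SFRP4, against 203 in mock, but the SFRP5 clone read 1453. L1CAM differed by 1.55 and 1.25 on 2 probes. JAG1, the gene of a Notch ligand, gave 11988 in SFRP4, against 43486 in mock, and TNFRSF19 differed by -1.52 and -1.67 on its probes. Members of this list that the Wnt list of antagonists also holds, DKK1 and NOTUM, are counted in both.

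Markers used for cancer stem cells were also split, with 2 of 15 kept members higher and 4 lower. SOX2 reached the filter on the SFRP4 array alone and 1 lower member on the mock array alone. The other 13 kept members had 1 higher and 3 lower. SOX2, a pluripotency factor, gave 653 in SFRP4, 158 in SFRP1, 83.5 in SFRP2, 140.3 in SFRP3, 111 in SFRP5 and 136 in mock, so the SFRP4 array stood alone. NES, the gene of nestin, gave 6253 in SFRP4, against 2804 in mock and 151 to 837 in the other 4 clones. KLF4 gave 1233 in SFRP4, against 5911 in mock (difference -2.26), CD44, the hyaluronan receptor gene, 1419.7 in SFRP4, against 3945 in mock, and ALDH3A1 198 in SFRP4, against 757 in mock. The dimmer probe of CD44 differed by 0.03. PROM1, LGR5, POU5F1 and NANOG were too dim to be kept, with at most 199.5 on the SFRP4 array and 140.0 on the mock array.

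Several heparan sulphate proteoglycan genes differed widely, in both directions. Of the 6 glypicans, which are anchored to the membrane by a lipid, 4 were higher and 0 lower (median 1.26). Of the 4 transmembrane syndecans 1 was higher and 2 were lower (median -0.70). All 10 genes on the array were kept, but GPC6 and SDC2 reached the filter on the SFRP4 array alone. Without these, 3 of 5 glypicans and 0 of 3 syndecans were higher. GPC6 gave 2959.7 in SFRP4, 120.4 in SFRP1, 89.1 in SFRP2, 69.7 in SFRP3, 183 in SFRP5 and 139 in mock, a difference of 4.40, and 2.64 on its other probe. GPC3 gave 7514 in SFRP4, 3325 in SFRP1, 165 in SFRP2, 1017 in SFRP3, 267 in SFRP5 and 378 in mock, a difference of 4.31. The SFRP4 array was the highest for both, GPC6 was high there alone, and GPC3 was also higher in SFRP1 and SFRP3 than in mock. GPC4 differed by 1.41, GPC2 by 1.11, GPC5 by 0.06 and GPC1 by -0.24.

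Among the syndecans SDC1, the form typical of epithelia, gave 1875 in SFRP4, 12773 in SFRP1, 17539.8 in SFRP2, 6511 in SFRP3, 13421 in SFRP5 and 27456 in mock, a difference of -3.87. SDC4, a focal adhesion syndecan, gave 1205 in SFRP4, against 3653 in mock, and SDC2 gave 1043 in SFRP4, against 251 in mock, a difference of 2.05 with 1.19 on its dimmer probe. Genes that build or trim the chains and other proteoglycan cores had 7 higher and 3 lower of 35 kept. Of these, 3 higher genes, HS3ST1 among them, reached the filter on the SFRP4 array alone and 2 lower genes on the mock array alone. The other 30 kept genes had 4 higher and 1 lower, and all 55 on the array had 8 and 4. HS3ST1 and HS6ST2 encode sulphotransferases. HS3ST1 gave 1198 in SFRP4, against 88.3 in mock, and HS6ST2 gave 1257 in SFRP4, against 352 in mock. HPSE, the gene of heparanase, which cuts heparan sulphate, gave 1652 in SFRP4, against 467 in mock and 511 to 697 in the other 4 clones. VCAN, the versican core protein gene, differed by 2.59 and 2.21 on 2 probes. HSPG2, the perlecan gene, was lower, with 2238 in SFRP4, against 5754 in mock and 6262 to 11479 in the other 4 clones, and SRGN, the serglycin gene, gave 131 in SFRP4, against 1398 in mock, with mock the highest array.

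**Figure D4:**
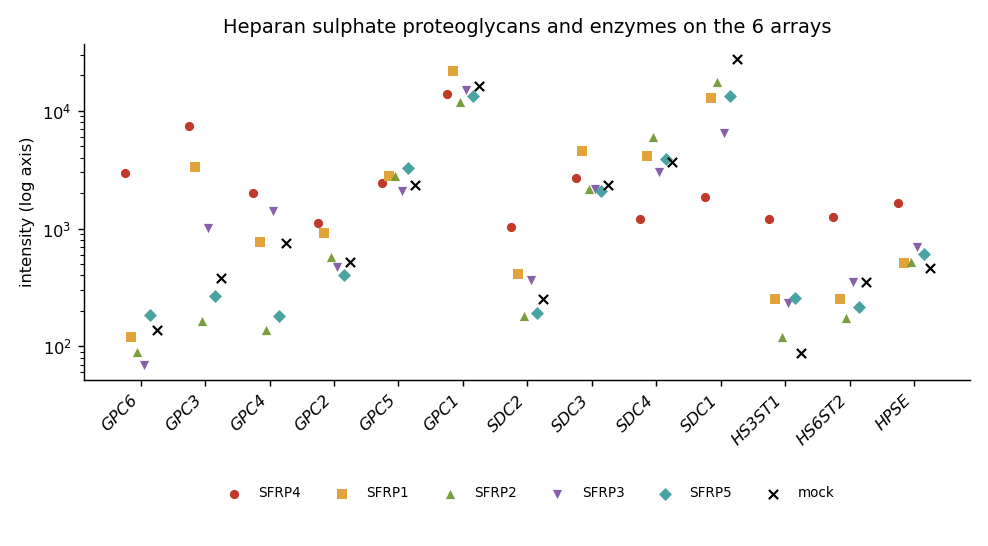
Intensity on a log axis of glypican, syndecan and 3 heparan sulphate enzyme genes on each of the 6 arrays, with SFRP4 at the left and mock at the right of each gene. The SFRP4 point is the highest for GPC6, GPC3, GPC4, GPC2 and SDC2 and the lowest for SDC1 and SDC4.

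The largest positive difference among genes with both values above the 10th percentile of their array was that of TNFRSF21, which encodes death receptor 6. It gave 29813 in SFRP4, 6633 in SFRP1, 805 in SFRP2, 1264 in SFRP3, 739 in SFRP5 and 816 in mock, a difference of 5.19, and it has 1 probe. Of 22 kept genes in the TNF receptor superfamily list, which also holds the adaptor genes TRADD, FADD and EDARADD, 3 were higher and 1 lower. TNFRSF11B, which encodes osteoprotegerin, a soluble decoy receptor, gave 11676 in SFRP4, 1589.8 in SFRP1, 1540.5 in SFRP2, 1856 in SFRP3, 1875 in SFRP5 and 1631 in mock, so that the 5 other arrays were close together and SFRP4 stood above them. TNFRSF14 differed by 1.07. TNFRSF10B, a TRAIL receptor gene, differed by -0.59 and 0.32 on 2 bright probes. The adaptor genes TRADD and FADD differed by 0.08 and -0.67.

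Caspases and BCL2-family genes were lower where they differed, 6 of 30 kept genes against 0 higher. CASP8, the initiator caspase of death receptors, gave 855 in SFRP4, 2323 in SFRP1, 3789 in SFRP2, 3385 in SFRP3, 3697 in SFRP5 and 3718 in mock, differences of -2.12 and -1.43 on 2 probes. CASP4, an inflammatory caspase, gave 262 in SFRP4, against 2021 in mock, with -2.94 and -3.09 on 2 probes. BCL2L1 and BCL2A1 encode inhibitors of cell death. BCL2L1 gave 1977 in SFRP4, against 5695 in mock, and BCL2A1 gave 54.7 in SFRP4, against 556 in mock. BIRC3, an inhibitor of apoptosis and a NF-kappaB target, gave 228 in SFRP4, against 1641 in mock, with SFRP4 the lowest of the 6 arrays. BCL2L11, which encodes the pro-apoptotic BIM, differed by 0.97, just under 2-fold.

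Interferon-stimulated genes formed the list with the most lower members. Of 37 kept genes 18 were at least 2-fold lower (48.6%, against 7.51% of all kept genes) and 0 were higher, with a median of -0.99, and the median was between -1.11 and -0.97 under the other scalings. OAS1, whose product makes the second messenger that activates RNase L, gave 238 in SFRP4, 337 in SFRP1, 7779 in SFRP2, 444 in SFRP3, 7909 in SFRP5 and 5584 in mock, and its other probe differed by -2.99. RSAD2, an antiviral enzyme gene, gave 159 in SFRP4, 349 in SFRP1, 9416 in SFRP2, 169.6 in SFRP3, 1758 in SFRP5 and 2327 in mock. ISG20, an exonuclease gene, gave 2384 in SFRP4, 10578 in SFRP1, 27054 in SFRP2, 9832 in SFRP3, 10818 in SFRP5 and 14660.5 in mock. For OAS1 and RSAD2 the SFRP1, SFRP3 and SFRP4 arrays were low and the SFRP2, SFRP5 and mock arrays high, whereas ISG20 was lowest on SFRP4 alone.

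The sensors of viral RNA were lower too: IFIH1 gave 678 in SFRP4, against 2643 in mock and DDX58 1522 in SFRP4, against 5945 in mock, with -1.01 on its other probe. Among the factors that carry the signal IRF7 differed by -1.82, IRF1 by -1.57, IRF9 by -1.42 and STAT2 by -0.94. Of the 37 members 4 were above 0: IFI44 differed by 0.66, IFI44L by 0.49, IFIT1 by 0.27 and HERC5 by 0.15. The membrane proteins IFITM1, IFITM2 and IFITM3 differed little, by -0.17, -0.08 and -0.10. Of 17 kept antigen presentation genes 4 were lower and 0 higher. HLA-C gave 354 in SFRP4, 2159.6 in SFRP1, 2015 in SFRP2, 3256 in SFRP3, 2214 in SFRP5 and 2723 in mock, and the immunoproteasome subunit PSMB9 and the peptide transporter TAP1 differed by -1.91 and -1.25. The HLA-C probe may also bind RNA of the other class I genes, which are near copies.

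Interferon-stimulated genes are known to carry a response element for IRF and STAT factors. Promoters are shown for 4 of the 10 lower genes that held the motif given below, so each has a match by choice. RSAD2 has 2 windows, and one with a match is shown. The windows are the 250 bases before the annotated gene start in RefSeq, build GRCh38.p14, written on the gene's strand from 5′ to 3′. The motif searched was GAAA, then 2 bases of any kind, then GAAA, on either strand, which on the opposite strand reads TTTC, 2 bases, TTTC. Capitals mark each match, and overlapping matches run together.
RSAD2, chr2:6877527-6877776, + strand: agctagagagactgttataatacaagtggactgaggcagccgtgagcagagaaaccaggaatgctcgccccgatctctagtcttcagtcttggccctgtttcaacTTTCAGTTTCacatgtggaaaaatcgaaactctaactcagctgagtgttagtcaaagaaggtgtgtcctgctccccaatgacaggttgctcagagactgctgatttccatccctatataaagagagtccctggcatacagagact
ISG20, chr15:88638766-88639015, + strand: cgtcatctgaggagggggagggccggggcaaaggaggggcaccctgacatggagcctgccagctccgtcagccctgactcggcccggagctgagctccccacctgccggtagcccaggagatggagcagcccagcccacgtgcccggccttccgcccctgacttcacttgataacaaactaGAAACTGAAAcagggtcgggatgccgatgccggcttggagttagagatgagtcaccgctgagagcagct
IFIH1, chr2:162318685-162318934, - strand: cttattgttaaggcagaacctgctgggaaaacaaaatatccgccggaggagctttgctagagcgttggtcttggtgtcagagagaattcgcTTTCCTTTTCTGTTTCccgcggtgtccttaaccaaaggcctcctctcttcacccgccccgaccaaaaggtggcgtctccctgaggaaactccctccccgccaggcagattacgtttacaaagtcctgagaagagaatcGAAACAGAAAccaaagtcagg
OAS3, chr12:112938224-112938473, + strand: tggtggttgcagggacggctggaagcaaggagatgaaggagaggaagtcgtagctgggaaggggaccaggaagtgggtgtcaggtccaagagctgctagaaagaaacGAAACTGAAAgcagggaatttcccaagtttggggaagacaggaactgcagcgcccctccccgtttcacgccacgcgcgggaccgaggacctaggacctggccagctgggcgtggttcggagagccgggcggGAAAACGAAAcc
Counted from the gene start, the match begins at position -145 in RSAD2 and at position -69 in ISG20. IFIH1 holds 3 matches, a pair of which overlap, and OAS3 holds 2.

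Of the 37 kept interferon-stimulated genes 30 had a window in the RefSeq table, and 20 of these 30 held the motif (66.7%). Over all windows the share was 3.02% of 35116, or 3.71% of 27305 genes. Among the 17 matched genes that were at least 2-fold lower 10 held it, and among the 13 others 10 did, so in this window the motif was not more frequent among the lower members. OAS1 and DDX58 held no match in the searched window. A match is a string of letters and not a measured binding site.

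Immune and stress genes outside that list were mixed. Of 18 kept NF-kappaB components and targets 4 were lower and 1 higher, with a median of -0.45. NFKBIZ, an atypical inhibitor gene, gave 1256 in SFRP4, against 6199.7 in mock, RELB gave 534 in SFRP4, against 1499 in mock, and NFKBIE was higher at 1.16. IL18, a cytokine of the interleukin-1 family, went the other way and gave 2663 in SFRP4, 203 in SFRP1, 186 in SFRP2, 195 in SFRP3, 153 in SFRP5 and 161 in mock, a difference of 4.04 that no other clone approached. IL8, a neutrophil chemokine, gave 6385 in SFRP4, against 60973 in mock, but the other 4 clones spread over 4036 to 78646. IL4R and IL15RA encode receptor chains. IL4R gave 1591 in SFRP4, against 12989.6 in mock, and IL15RA gave 133 in SFRP4, against 1189.8 in mock, and for both the SFRP4 array was the lowest of the 6. IL6 gave 183 in SFRP4, against 746 in mock.

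Immediate early genes were lower more often than higher. Of 52 kept immediate early and ERK feedback genes 14 were lower and 2 higher. EGR1, a zinc finger factor gene, gave 5993 in SFRP4, 6187 in SFRP1, 34643 in SFRP2, 44297 in SFRP3, 89149 in SFRP5 and 18128 in mock. DUSP1, a MAP kinase phosphatase gene, gave 3116 in SFRP4, 13872 in SFRP1, 20486 in SFRP2, 28008 in SFRP3, 91094 in SFRP5 and 11075 in mock. FOSL1, an AP-1 subunit gene, gave 2543 in SFRP4, 8395 in SFRP1, 15293 in SFRP2, 7316 in SFRP3, 15219 in SFRP5 and 6979 in mock. The SFRP4 array was the lowest of the 6 for these genes, and SFRP5 was the highest for EGR1 and DUSP1. DUSP4, DUSP5 and DUSP6, which encode feedback phosphatases of the ERK pathway, differed by -1.27, -1.39 and -1.19. SPRY2, a feedback inhibitor of receptor tyrosine kinases, was the clear exception at 5283 in SFRP4, against 1489 in mock, while SPRY4 differed by -1.20. Of 10 kept EGF-family ligands and receptors 3 were lower and 1 higher. HBEGF, the gene of an EGF receptor ligand, gave 5599.7 in SFRP4, 34248 in SFRP1, 59362 in SFRP2, 49449 in SFRP3, 41503 in SFRP5 and 59264 in mock, a difference of -3.40. EGFR and ERBB2, receptor genes of the family, differed by -0.16 and 0.16, and NRG1, a ligand of ERBB3 and ERBB4, by -1.35, with -1.48, -0.11, -1.95, -1.53 and -2.47 on its other probes.

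Other ligands differed strongly. ANGPT2, a ligand of the TIE2 receptor that acts on blood vessels, gave 33627 in SFRP4, 8029 in SFRP1, 8056 in SFRP2, 6835 in SFRP3, 9646 in SFRP5 and 2066 in mock. PDGFC gave 5705 in SFRP4, against 1631 in mock, a difference of 1.81, whereas PDGFA, of the same family, gave 509.7 in SFRP4, against 2345 in mock, a difference of -2.20. The receptor gene PDGFRA differed by 1.40 and FLT1, a VEGF receptor gene, by 1.14, though the other bright probe of FLT1 differed by 0.35. FGF1 was lower on 3 bright probes, at -2.95, -3.31 and -2.77. IGF1R differed by 1.28 and IGFBP3 by 1.46, with 1.64 on its other probe. In the TGF-beta family 7 of 40 kept genes were higher and 3 lower. Of the higher genes 1, GREM1, reached the filter on the SFRP4 array alone. Without the genes kept on that array alone, 6 of 38 were higher and 3 lower. GREM1, a secreted BMP antagonist, gave 705 in SFRP4, 149 in SFRP1, 82.7 in SFRP2, 124 in SFRP3, 117 in SFRP5 and 104 in mock, BMP4 differed by 1.55, and GDF15, a stress-induced cytokine, gave 1092 in SFRP4, against 6472 in mock. Among 7 kept hedgehog genes 0 were 2-fold away.

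A few genes of epithelial attachment were far lower in SFRP4. Of 17 kept integrin genes 3 were lower and 0 higher (17.6% lower), and of 17 keratins likewise 3 and 0, against 7.51% of all kept genes, while among 8 laminin genes LAMA3 alone was 2-fold away. ITGA2, a collagen receptor subunit, gave 842 in SFRP4, 2667 in SFRP1, 6489 in SFRP2, 3708 in SFRP3, 2673 in SFRP5 and 11476 in mock. ITGB4, the hemidesmosome subunit, gave 1216 in SFRP4, 4146 in SFRP1, 5034 in SFRP2, 5199 in SFRP3, 5886 in SFRP5 and 12736 in mock, with -3.11 on its other probe, and LAMA3, which encodes a chain of the laminin that this integrin binds, gave 422 in SFRP4, 1499.8 in SFRP1, 1600.1 in SFRP2, 11204 in SFRP3, 7219 in SFRP5 and 6009.9 in mock. The SFRP4 array was the lowest of the 6 for the 3 genes. COL17A1, another hemidesmosome component, differed by -1.33. KRT15, a basal cell keratin, gave 1030.3 in SFRP4, 5301 in SFRP1, 17932 in SFRP2, 31698 in SFRP3, 18489.5 in SFRP5 and 15195 in mock, and DSP, the desmoplakin gene, gave 1793 in SFRP4, 8508 in SFRP1, 11760.5 in SFRP2, 11776 in SFRP3, 8522 in SFRP5 and 8097 in mock. Not all junction genes were lower: DSC2, a desmosomal cadherin, differed by 2.02 and 2.03 on 2 probes, and JUP, the plakoglobin gene, by 1.26.

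The mesenchymal cadherin CDH2 (N-cadherin) gave 13678 in SFRP4, 5749 in SFRP1, 5687 in SFRP2, 1384 in SFRP3, 8524 in SFRP5 and 935 in mock, a difference of 3.87, with mock the lowest of the 6 arrays. The transcription factors tied to epithelial-mesenchymal transition went both ways. SNAI1 and ZEB1 were lower, at -1.48 each, and TWIST1 was higher at 1.38. TWIST2, ZEB2 and SNAI2 were within 2-fold, at 0.58, 0.53 and 0.14. VIM, the vimentin gene, gave 200916 in SFRP4, against 287254 in mock. Of the 12 kept members of that list 2 were higher and 2 lower.

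Genes best known for contacts between neurons were more often higher than lower. Of 24 kept neural adhesion genes of the immunoglobulin family and their partners 8 were higher and 0 lower (33.3% against 5.97%), with a median of 0.61. Of these 8, 3 reached the filter on the SFRP4 array alone, and over all 45 members on the array 11 were higher and 0 lower, with a median of 0.35. NLGN1, a postsynaptic adhesion gene, gave 2313 in SFRP4, 356 in SFRP1, 541 in SFRP2, 232 in SFRP3, 787 in SFRP5 and 162 in mock. CHL1, a relative of L1CAM, gave 1362 in SFRP4, 157 in SFRP1, 135 in SFRP2, 233 in SFRP3, 204 in SFRP5 and 124 in mock, with dimmer probes at 0.60 and 3.24. CNTN4 (contactin 4) gave 1858 in SFRP4, against 226 in mock, and differed by 3.04 and 2.80 on 2 probes. These values were highest on the SFRP4 array for all 3.

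Protocadherins, adhesion proteins whose clustered members give neurons an identity code, had 12 of 23 kept genes higher and 1 lower (52.2% higher), with a median of 1.01. Over all 64 members on the array 18 were higher and 1 lower, with a median of 0.52. The beta cluster stood out within the list, a division made after the values were seen: 9 of its 11 kept genes were higher, 0 lower, and the median was 1.60. Of these 9, 2 reached the filter on the SFRP4 array alone, PCDHB8 among them. Over all 18 genes of the cluster on the array 11 were higher and 0 lower, with a median of 1.23. PCDHB8 gave 1231 in SFRP4, 279 in SFRP1, 309 in SFRP2, 425 in SFRP3, 278 in SFRP5 and 232 in mock. PCDHB16 gave 2969 in SFRP4, 595 in SFRP1, 668 in SFRP2, 1026 in SFRP3, 742 in SFRP5 and 819 in mock, and PCDHB10 gave 3816 in SFRP4, 852 in SFRP1, 852 in SFRP2, 909.5 in SFRP3, 914 in SFRP5 and 1179 in mock. The SFRP4 array was the highest for each. These genes lie side by side and are near copies, so that their probes may share RNA and cannot be taken as separate measurements. The 4 kept genes of the gamma cluster had a median of 0.55, with 1 higher, and PCDH17, outside the clusters, gave 142 in SFRP4, against 638 in mock. Of 31 kept potassium channel genes 8 were higher and 2 lower (25.8% higher), with KCNH6 at 2.64 and KCNE2 at 2.04. Of these 8, 1 reached the filter on the SFRP4 array alone. Over all 89 channel genes on the array 9 were higher and 3 lower, with a median of 0.28.

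**Figure D5:**
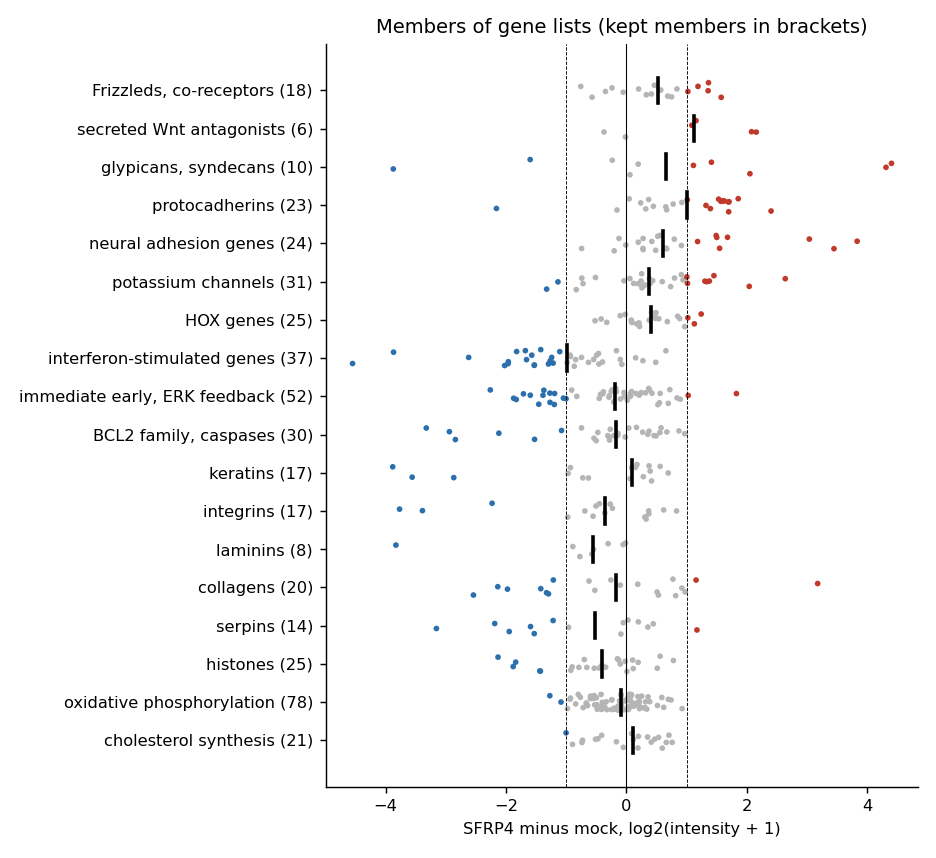
Each point is a kept gene of the list named at the left, with its difference SFRP4 minus mock in log2 units, coloured where it was at least 2-fold away, and the black bar is the list's median. The medians run from -0.99 for interferon-stimulated genes to 1.12 for secreted Wnt antagonists.

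Among matrix genes collagens were lower more often than higher. Of 20 kept collagens 7 were lower and 2 higher. Of these 2 higher genes, 1 reached the filter on the SFRP4 array alone. Over all 43 collagens on the array 8 were lower and 2 higher, with a median of 0.08. COL4A1 encodes a main basement membrane chain and gave 2619 in SFRP4, against 15248 in mock. COL4A2, its partner, gave 4728 in SFRP4, against 18596 in mock, and COL6A1 and COL6A2 differed by -1.21 and -1.29. COL12A1 went the other way, with 772 in SFRP4, against 84.6 in mock. FBN2, the gene of a microfibril protein, gave 3238 in SFRP4, against 211 in mock, and FN1 (fibronectin) gave 67437 in SFRP4, against 204995 in mock, with 4774 to 122894 in the other 4 clones. SPP1 (osteopontin) gave 29644 in SFRP4, against 120483 in mock, with 628 to 70113 in the other 4 clones. MMP1, an interstitial collagenase, gave 573 in SFRP4, 8267 in SFRP1, 12419 in SFRP2, 24842 in SFRP3, 20640.2 in SFRP5 and 9802 in mock, a difference of -4.10 with all 5 other arrays far above SFRP4. The metalloproteinase inhibitor TIMP3 had the most negative difference with both values above the 10th percentile: 171 in SFRP4, 349 in SFRP1, 1191 in SFRP2, 2271 in SFRP3, 33892 in SFRP5 and 13336 in mock, a difference of -6.28. TIMP1 differed by -1.34 and TIMP2 by 1.53, so TIMP2 was higher while TIMP1 and TIMP3 were lower.

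In the coagulation and fibrinolysis list 3 of 16 kept genes were higher and 4 lower. F7 encodes coagulation factor VII and F3 its receptor, tissue factor: F7 gave 4671 in SFRP4, 918 in SFRP1, 518 in SFRP2, 462 in SFRP3, 616 in SFRP5 and 351 in mock, and F3 gave 1028 in SFRP4, against 4908 in mock. Its dimmer probe put F7 at 0.12. PLAT, the tissue plasminogen activator gene, gave 4309.8 in SFRP4, against 863 in mock, with 1051 to 1653 in the other 4 clones, and PLAU, the urokinase gene, differed by -0.99. TFPI, the inhibitor of the tissue factor complex, differed by -1.82 and -1.50. Of 14 kept serpins 6 were lower and 1 higher. SERPINA1, the alpha-1-antitrypsin gene, gave 194 in SFRP4, 193 in SFRP1, 423 in SFRP2, 871 in SFRP3, 2136 in SFRP5 and 1737 in mock, and SERPINB8 gave 936 in SFRP4, 4738 in SFRP1, 12016 in SFRP2, 9283 in SFRP3, 6256 in SFRP5 and 3609.7 in mock. HAS3, a hyaluronan synthase gene, gave 2117 in SFRP4, 12058 in SFRP1, 23911 in SFRP2, 32314 in SFRP3, 19626 in SFRP5 and 22663 in mock.

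Kept HOX and nuclear receptor genes that were 2-fold away were higher, and kept forkhead genes lower. Of 25 kept HOX genes 3 were higher and 0 lower with a median of 0.41, and of 29 nuclear receptors 4 were higher and 0 lower. HOXB5 differed by 1.24, NR2F2 by 2.05 and NR0B1, an orphan receptor gene, by 2.18. Forkhead genes had 6 of 25 kept members lower and 0 higher. Among the lower ones FOXQ1 gave 2085 in SFRP4, against 7218 in mock, and FOXF1 gave 840.4 in SFRP4, against 2597 in mock. FOXL1 gave 107 in SFRP4, against 872 in mock. Of the 6 lower genes 1 reached the filter on the mock array alone. Over all 41 forkhead genes on the array 8 were lower and 2 higher, with a median of 0.16. Of 25 kept histone genes 5 were lower and 0 higher. All 5 belong to the HIST1 cluster, whose 14 kept members had a median of -0.85. HIST1H1C, a linker histone gene, gave 2677 in SFRP4, 10675 in SFRP1, 12009 in SFRP2, 21645 in SFRP3, 14313 in SFRP5 and 11738 in mock. The 4 other lower ones were HIST1H3G, HIST1H2BK, HIST1H4F and HIST1H4H, and near copies within the cluster may share signal.

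Few genes of respiration, cell division and cholesterol synthesis were 2-fold away. Of 78 kept oxidative phosphorylation genes 0 were higher and 2 lower, of 54 mitosis genes 3 and 3, of 55 replication and repair genes 1 and 2, and of 21 cholesterol synthesis genes 0 and 1. Stress lists varied. The lower share was above 7.51% among ATF4 and amino acid genes, with 6 of 39 kept lower and 2 higher. It was also above it among hypoxia-responsive genes, with 5 of 25 lower and 3 higher, a higher share of 12%. Heat shock protein genes had 1 of 54 kept members lower and 1 higher (1.85% each). Among 26 kept endoplasmic reticulum chaperone genes 3 were lower and 0 higher, with EDEM1, which helps clear misfolded proteins, at 1567 in SFRP4, 6130.3 in SFRP1, 7443 in SFRP2, 6587 in SFRP3, 6196 in SFRP5 and 6301 in mock. NUPR1, a stress-induced nuclear protein gene, gave 2689 in SFRP4, against 29176 in mock and TRIB3, an ATF4 target, 6752 in SFRP4, against 18383 in mock. MT2A, a metallothionein gene, gave 25126 in SFRP4, against 98047 in mock, and PLIN2, a lipid droplet coat gene, 16494 in SFRP4, against 59065 in mock, with 57999 to 66905 in the other 4 clones. DDIT4, an inhibitor of mTORC1 signalling, was higher at 1.26 and highest on the SFRP4 array. PEG10, an imprinted gene derived from a retrotransposon, gave 71017 in SFRP4, 23509 in SFRP1, 7717 in SFRP2, 15496 in SFRP3, 7971 in SFRP5 and 16440.4 in mock.

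Most of the 2-fold genes did not set the SFRP4 array apart from all others. The SFRP4 value lay at least 2-fold above all 5 other arrays for 164 genes (1.37% of kept genes) and at least 2-fold below them for 270 (2.26%). For 42 of the higher genes and 45 of the lower ones it was the mock array that stood at least 2-fold outside all 5 clones, and for 508 and 583 it was neither. With the probes near 0 on 1 of the compared arrays set aside, the widest gaps above the rest belonged to GPC6, IL18 and TINAG, a basement membrane glycoprotein gene, which gave 1081 in SFRP4, 96.9 in SFRP1, 70.8 in SFRP2, 42.2 in SFRP3, 73.8 in SFRP5 and 77.1 in mock. Further such genes were BCO2, a carotenoid oxygenase gene (1780.5 in SFRP4, against 169 in mock), GNMT, a glycine methyltransferase gene (1875 in SFRP4, against 230.2 in mock), and PDGFRL (2398 in SFRP4, against 359 in mock). The widest gaps below belonged to MMP1, PSENEN and B3GNT5. PSENEN encodes a gamma-secretase subunit and gave 3105 in SFRP4, 39476 in SFRP1, 42503 in SFRP2, 52907 in SFRP3, 44626 in SFRP5 and 34429.6 in mock, but its other bright probe differed by -0.39. B3GNT5, a glycolipid glycosyltransferase gene, gave 358 in SFRP4, 4649 in SFRP1, 13629 in SFRP2, 4922 in SFRP3, 10154 in SFRP5 and 3428 in mock. MGLL, a monoacylglycerol lipase gene, gave 425 in SFRP4, 3895 in SFRP1, 6403 in SFRP2, 8969 in SFRP3, 8434 in SFRP5 and 2707 in mock, and SLC14A1, a urea transporter gene, 186 in SFRP4, 4972 in SFRP1, 3117 in SFRP2, 7073 in SFRP3, 24756 in SFRP5 and 1225 in mock, with -2.30 and -1.72 on its other probes.

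Genes for which mock was the array apart include several of the largest differences. SLFN12, a Schlafen gene, gave 87.5 in SFRP4, against 1757 in mock, and at most 88.1 in the other 4 clones. IRX5, a homeobox gene, gave 1524 in SFRP4, 1053 in SFRP1, 1663 in SFRP2, 3458 in SFRP3, 2946 in SFRP5 and 28165 in mock, and AGR2, a secretory disulphide isomerase gene, gave 1137 in SFRP4, 184 in SFRP1, 40.6 in SFRP2, 615 in SFRP3, 156 in SFRP5 and 9089 in mock. On the higher side IL24, a cytokine gene, gave 400.4 in SFRP4, 1301 in SFRP1, 11189 in SFRP2, 8748 in SFRP3, 1646 in SFRP5 and 75.2 in mock. For CADPS2, a vesicle priming gene, both arrays played a part, since SFRP4 read 1817, the other 4 clones 452 to 1305 and mock 86.5. Between these cases lie OCIAD2, which gave 105 in SFRP4, 7362 in SFRP1, 103 in SFRP2, 87.1 in SFRP3, 120.4 in SFRP5 and 4143 in mock, and PLA2G7, a phospholipase gene, which gave 1525 in SFRP4, 317 in SFRP1, 219 in SFRP2, 1642 in SFRP3, 74.9 in SFRP5 and 78.0 in mock. PAEP, which encodes glycodelin, gave 3939 in SFRP4, 19968 in SFRP1, 79094 in SFRP2, 157606 in SFRP3, 155212 in SFRP5 and 97829.7 in mock, and RAC2, HIC1, OSCAR and ANXA1 were among the lowest with differences of -4.78, -4.78, -5.43 and -4.24.

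A few probes were near 0 on one array and bright on another, and for these only a bound can be given, set against the 10th percentile of the dim array. DHRS2, a short-chain dehydrogenase gene, gave 237640.0 in SFRP4, 40.1 in SFRP1, 18.3 in SFRP2, 3.67 in SFRP3, 36.9 in SFRP5 and 31.0 in mock, at least 3417-fold higher in SFRP4. PTDSS1, a phosphatidylserine synthase gene, was at least 546-fold higher, TMEM185A at least 120.5-fold and BANP at least 104-fold, each on SFRP4 alone. TSEN54 was at least 67.6-fold higher, but there mock alone was low, with 3737 to 5377 in the other 4 clones. RPS28, a ribosomal protein gene, was at least 3534-fold lower in SFRP4, RHOA at least 1722-fold, the proteasome gene PSMB4 at least 1500.4-fold, GLUL at least 278-fold and CFD at least 93.2-fold. The 5 last genes were bright on all 5 other arrays, with RPS28 at 196149 to 268644 in the other 4 clones and 236629 in mock. Kept genes low on a single array and at or above the table median on the rest numbered 7 on SFRP4, 2 on mock and 0 to 1 on the other arrays. None of the genes named here with a bound has another bright probe, although a dim second probe of GLUL differed by 0.18, and whether the readings reflect RNA or the spot was not tested.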

How the data were processed

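RNA of 6 stable clones was hybridised to 1 array each, and the SFRP4 and mock arrays were compared. Trizol extraction, RNA amplification and Cy5 labelling in one colour are given per the labels' protocols. The deposited values are linear intensities. The sources used here do not give the authors' scanner software, background correction or scaling. Below an intensity of 2000, the deposited values of each array were whole multiples of 1 factor (100% lay within 0.05 of a whole number), 1.37 on the SFRP4 array and 0.940 on the mock array. Values under 0 were set to 0, 1 was added and log2 taken. Each gene was represented by the 1-symbol probe with the highest mean, and a gene entered the comparison if its highest intensity on any array was at or above 641.8, the median of all values. The differences have no replicate, since each group has 1 array, so no test was made and precision is limited by the number of arrays. Named genes are, per direction, the 15 largest differences, 5 given as bounds, 10 with 2 concordant probes, 10 with SFRP4 apart and 5 with mock apart, up to 8 members of each list (any member of lists of 12 or fewer) and the SFRP, Wnt, Frizzled and antagonist genes; members within 2-fold serve as examples. IRF1, IRF9, DUSP4, DUSP6 and SPRY4 fall outside this rule and were named after their values were seen. The members and gene lists were chosen with earlier results of these data known. Alternatives covered the scaling, pseudocount, filter, choice of probe and fold threshold. The calling steps were tested on simulated data. Python 3.11.15, pandas 2.3.3, numpy 2.4.6, statsmodels 0.14.6 and matplotlib 3.10.9 were used, and promoter windows came from RefSeq GRCh38.p14.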

Additional observations from a re-analysis of the deposited data

Results flagged for a closer look

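Probes outside the comparison of named genes also differed between the arrays. Of 977 probes with several gene symbols 611 were bright, and 39 of them were at least 2-fold higher and 51 at least 2-fold lower in SFRP4 than in mock (6.38% and 8.35%). Of 6024 probes with no symbol 2163 were bright, and 129 were higher and 138 lower (5.96% and 6.38%). These probes were set aside because they name no single gene.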

How the results depend on the processing

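No paired analysis was possible because each group has 1 array and the groups share only replicate number 1, and for the same reason no array could be left out. The counts of 714 higher and 898 lower genes became 117 and 178 at 4-fold, 536 and 1115 with median centring, 673 and 905 with quantile normalization, 697 and 878 with a pseudocount of 16, and 645 and 818 with one of 64. They were 714 and 894 with values under the 10th percentile raised to it, 1035 and 1223 with no filter on dim genes, 544 and 729 with the filter on the mean of the pair, 579 and 805 with the mean of all probes, and 712 and 891 without probes near 0 on 1 array. Level-dependent centring (628 and 971) and leaving out values under the 10th percentile (701 and 882) were chosen after seeing the data. Median centring shifted all differences by -0.12, and 17 of 88 lists changed the sign of their median under it, 6 under quantile normalization and 8 under level-dependent centring, the keratin, hedgehog and TGF-beta lists among the 17. The filter and the probe choice weighed as much: 17 list medians changed sign with no filter on dim genes, 7 with the filter on the mean of the pair and 8 with the mean of all probes. Among those with no filter, the median of the secreted Wnt antagonists was -0.10 and the median of Serpins was 0.0261, because dim members were added. Of 4213 values of 396 named genes 4112 moved little, 101 moved more and 0 changed sign. These genes were all at least 2-fold from mock to begin with, so a change of sign was unlikely beforehand. Genes named above within 2-fold were not part of this check.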
